A study of Homo sapiens with 12 samples.

Results

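The DDX and DHX genes encode RNA helicases, and their protein-coding members were compared between K562 cells treated with DMSO, the solvent control, and K562 cells treated with FT671. K562 is an established erythroleukemia line, first grown from the blast phase of a chronic myeloid leukemia. FT671 is a small molecule that blocks the ubiquitin protease USP7. Members were taken as every gene that GENCODE release 44 lists as protein-coding under a symbol that starts with DDX or DHX and a digit. This gave 54 genes among the 60609 genes with a count, and 44 pseudogenes and non-coding genes with similar symbols were left out. The 6 RNA-seq libraries comprised 3 with DMSO and 3 with 10 uM FT671, all exposed for 48 h, and gave between 4555220 and 14250500 counted reads. All libraries are of 1 cell line. The labels give only replicate numbers, while the study describes the libraries as independent experiments.

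DEAD-box and DEAH-box helicases use ATP to open RNA duplexes or to strip proteins from RNA. They share a helicase core that is recognised by short motifs, among them motif II, the Walker B motif, whose letters give the families their names. DEAD-box proteins mostly open short duplexes locally, whereas many DEAH-box proteins move along a strand, and together they serve nearly each step in the life of an RNA, from transcription, ribosome assembly and splicing to export, translation and decay.

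The motif II codons are shown for 4 pairs of related members compared within libraries and for DDX3X and DHX9, 1 of the strongest falls and 1 of the strongest rises, with the 12 bases of the motif in capitals within 30 coding bases on the hg38 genome, read on the coding strand of the GENCODE canonical transcript. DDX39A and DDX39B carry DECD, DDX21 and DDX50 carry DEVD, DHX9 carries DEIH, and DDX3X, DDX5, DDX17, DDX19A and DDX19B carry DEAD.
DDX39A, chr19:14410999-14411028, minus strand: tttgtgctgGACGAGTGTGACaagatgctg
DDX39B, chr6:31536510-31536539, minus strand: tttattttgGATGAATGTGATaagatgctt
DDX21, chr10:68967119-68967148, plus strand: gttgtcctgGATGAAGTGGACcagatgttg
DDX50, chr10:68913492-68913521, plus strand: gttgtgcttGATGAAGTGGATcagatgtta
DDX19A, chr16:70366192-70366221, plus strand: tttgttctgGATGAGGCTGATgtcatgata
DDX19B, chr16:70329399-70329428, plus strand: tttgttctgGATGAGGCTGATgtcatgata
DDX5, chr17:64503236-64503265, minus strand: cttgtccttGATGAAGCAGATagaatgctt
DDX17, chr22:38494934-38494963, minus strand: cttgtattgGACGAAGCTGACagaatgctt
DDX3X, chrX:41345184-41345213, plus strand: ttggtgttaGATGAAGCTGATcggatgttg
DHX9, chr1:182867008-182867037, plus strand: gtaattgtaGATGAAATACATgaaagagat
The DDX19A and DDX19B windows are the same 30 bases. A read pair that covers only such identical bases cannot be assigned to one of the genes. Over the whole coding sequence these genes were 95.3% identical, against 80% for DDX39A and DDX39B, 70.9% for DDX21 and DDX50 and 70.4% for DDX5 and DDX17.

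Of the 54 members, 48 had enough counts to be tested and 6 did not. DDX4, DDX25, DDX43 and DDX3Y, which are known mainly from germ cells or testis or lie on the Y chromosome, had 0 counts in all 6 libraries, below the floor of 3 counts taken as the smallest detectable expression (between 0.211 and 0.659 CPM, counts scaled to the library total). DDX60, an antiviral helicase, had between 0 and 3 counts in a library. DDX47, a ribosome assembly helicase, had 5, 3 and 5 counts with DMSO and 4, 16 and 16 with FT671, and 36.5% of its exon bases are shared on the same strand with APOLD1. The part of these shared exons in the low level of DDX47 was not tested, and no change is given for it. The floor allows for counting error alone, because the reads carry no molecular identifiers.

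The identity of the cells was checked first, and no transcript served to check the treatment. The 9 genes expected in K562 cells, among them GATA1 at 230 to 324 CPM and TFRC at 416 to 654 CPM, were detected in every library, whereas CD3E, CD14 and ALB stayed at or below 0.541 CPM and COL1A1 at or below 2.35 CPM. The USP7 transcript, which the inhibitor does not target directly, stood at 119, 107 and 131 CPM with DMSO and 29.3, 34.1 and 35.8 CPM with FT671. FT671 acts on the protein, so its transcript checks no label. Replicates did not duplicate one another, since the chi-square of each pair within a group, divided by its degrees of freedom, ranged from 2.07 to 8.73. The largest values, 7.55 and 8.73, were those of DMSO replicate 3 against the other DMSO libraries.

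With FT671 more helicase transcripts rose than fell, and those that rose included most of the ribosome assembly helicases. By edgeR's quasi-likelihood test at an adjusted p-value of 0.05, 19 of the 48 tested members (39.6%) were higher with FT671, while 23.6% of all 13895 genes tested were higher. In the other direction 11 members (22.9%) were lower, against 26.5% of all genes, and 18 were not called. After correction for gene length the split was 21 higher and 7 lower. The median log2 fold change of the members was 0.14, against −0.010 for all genes. At the stricter threshold of 1e-05, DDX39B, DHX9, DDX10, DDX21 and DDX27 were higher, where 1.79% of all genes were, and DDX3X alone was lower, where 4.13% of all genes were. Every FT671 library lay above every DMSO library for 21 members (43.8%), against 26.8% of all genes, and below for 12 members (25%), against 30.3%.

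Part of these counts changed when 1 library was left out, which also lowers the power of the test. At 0.05 the number of members that were lower fell from 11 to 6 without FT671 replicate 2 and to 6 without FT671 replicate 3. At 1e-05 the number that were higher was 10 without DMSO replicate 3, 2 without DMSO replicate 1 or DMSO replicate 2, and 1 without any one of the 3 FT671 libraries. The number that were lower at 1e-05 was 4 without DMSO replicate 3 and 0 without FT671 replicate 3. Of the 30 members called at 0.05, 21 kept their call under all 17 alternatives, and 9 lost it under at least 1.

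**Figure D1:**
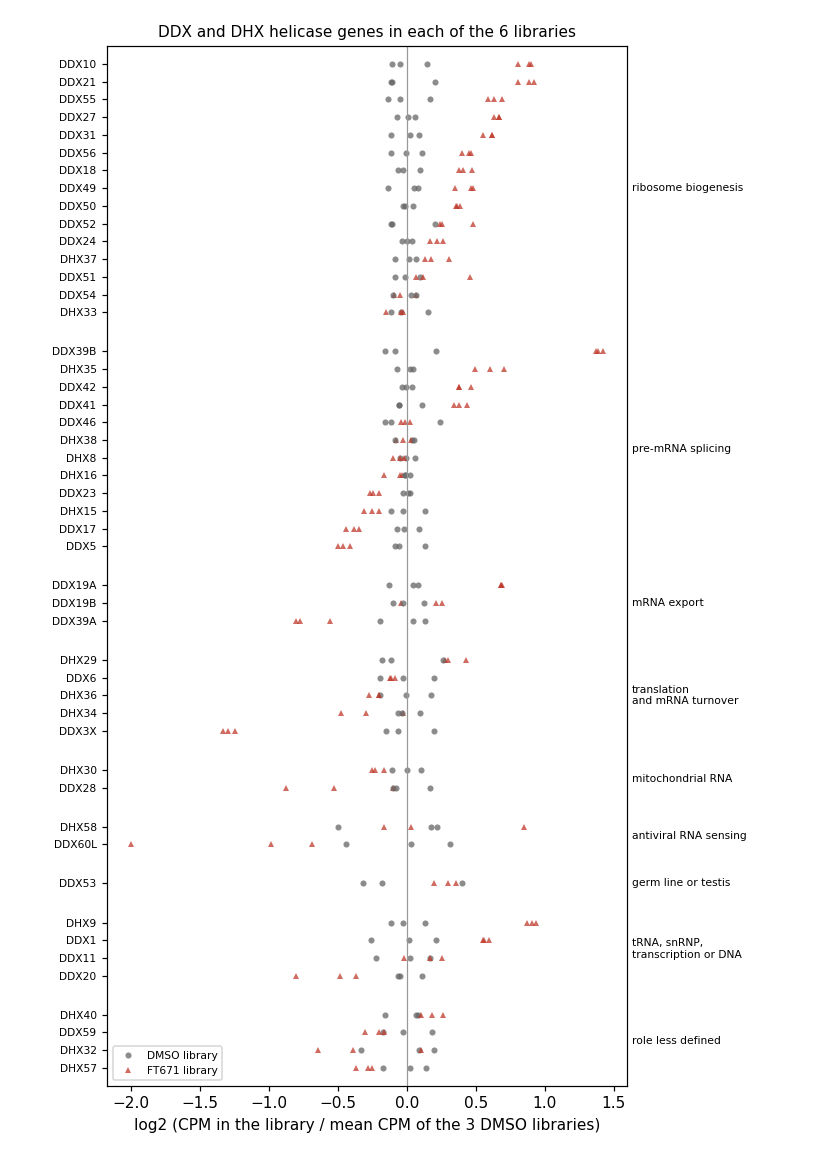
Each tested helicase gene in each library, as the log2 ratio of its CPM to the mean CPM of the 3 DMSO libraries (gray circles, DMSO; red triangles, FT671), grouped by role. The triangles lie right of the circles for most ribosome biogenesis genes, while DDX39B lies farthest to the right and DDX60L and DDX3X farthest to the left.

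The helicases of ribosome biogenesis, which remodel pre-ribosomal RNA in the nucleolus, mostly rose. Of 15 tested, 11 (73.3%) were higher, 0 were lower and 4 were not called. Over all genes 23.6% were higher and 26.5% lower. The median log2 fold change was 0.42, beside −0.010 for all genes. Summed as TPM, which scales counts to exon length and library total, the list rose from 834 ± 66.2 to 1120 ± 19.4 TPM (SD, n = 3). Every FT671 library lay above every DMSO library in this sum. DDX21 alone went from 223 ± 42.1 to 389 ± 18.7 TPM, so that 1 highly expressed gene held a large part of the summed rise.

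DDX10, at chr11:108665058-108940999, is a nucleolar helicase of the small ribosomal subunit. It was measured at 60.2, 57.9 and 68.8 CPM with DMSO and 109, 115 and 116 CPM with FT671, so that the groups did not overlap. The log2 fold change was 0.88 ± 0.085 (SE), and edgeR's adjusted p was 2.01e-06. DDX21, at chr10:68956135-68985068, couples rRNA transcription to rRNA processing. Its libraries held 572, 573 and 712 CPM with DMSO and 1080, 1140 and 1170 CPM with FT671. The DMSO libraries spread more than the FT671 libraries, DMSO replicate 3 being the highest of its group, yet no library crossed to the other group. DDX21 rose 1.83-fold (log2 0.87 ± 0.087, adjusted p = 2.65e-06 by edgeR), and per length it moved from the second highest member with DMSO, at 223 TPM, to the highest with FT671, at 389 TPM. DDX55, at chr12:123602077-123620943 and a helicase of the large subunit, gave 22.6, 23.9 and 27.9 CPM with DMSO and 38.4, 37.2 and 39.9 CPM with FT671. The groups did not overlap, with a log2 fold change of 0.66 ± 0.11 and an adjusted p of 2.13e-04 by edgeR. DDX55 shares 9.41% of its exon bases with EIF2B1 on the opposite strand, which was also higher (log2 0.39), and the strand setting of the counting is not stated in the sources used here.

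DDX27, which acts in the maturation of large-subunit rRNA, rose by a log2 fold change of 0.65, from 97.9 ± 4.83 to 154 ± 1.86 CPM (SD, n = 3). Smaller rises were called for DDX31 (log2 0.58), DDX56 (0.44), DDX18 (0.43), DDX49 (0.42), DDX50 (0.37), DDX52 (0.35) and DDX24 (0.22), all of them tied to ribosome assembly. DDX52 lost its call without DMSO replicate 1 (adjusted p = 0.104 by edgeR), without DMSO replicate 2 (0.0828) and without FT671 replicate 2 (0.117). DDX24 lost it without DMSO replicate 1 (0.0721), FT671 replicate 2 (0.0619) and FT671 replicate 3 (0.0744), and with no filter on low counts (0.143). The 4 members that were not called were DHX37, which releases the U3 small nucleolar RNA (log2 0.21, adjusted p = 0.0789), DDX51 (0.19, 0.321), DDX54 (−0.03, 0.769) and DHX33 (−0.07, 0.618). Of these, DHX37 passed 0.05 after correction for GC content (0.00462) or gene length (0.0126). DDX54 was the fifth highest member per length with DMSO, at 149 ± 0.676 TPM, and stood at 141 ± 6.91 TPM with FT671 (SD, n = 3).

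**Figure D2:**
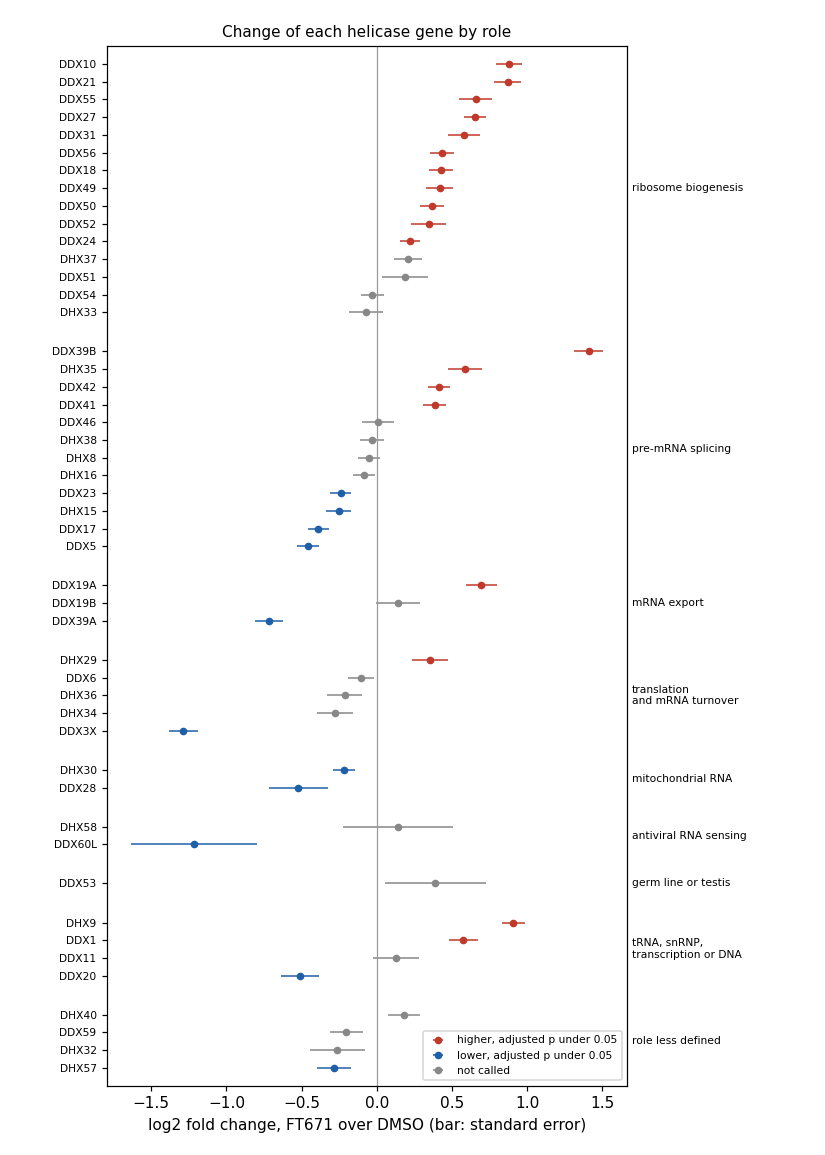
The log2 fold change of each tested helicase gene, FT671 over DMSO, grouped by role. Bars show a standard error worked out from edgeR's F statistic. Red is higher, blue lower and gray not called at an adjusted p of 0.05. No ribosome biogenesis gene is blue, whereas the splicing genes run from 1.41 for DDX39B to −0.46 for DDX5.

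Among the splicing helicases, 4 of 12 tested (33.3%) were higher, 4 (33.3%) were lower and 4 were not called. Over all genes 23.6% were higher and 26.5% lower, so that these shares lay near the background, and the median log2 fold change was −0.04. The summed level was 875 ± 79.6 TPM with DMSO and 799 ± 8.2 TPM with FT671 (SD, n = 3). Without FT671 replicate 2 the number that were lower fell to 2.

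DDX39B, at chr6:31530219-31542448, known as UAP56, acts in early spliceosome assembly and in the TREX export complex, and it had the largest rise among the members. The DMSO libraries gave 38.7, 36.8 and 47.5 CPM and the FT671 libraries 107, 110 and 106 CPM. The lowest treated library was thus more than 2 times the highest control, and the log2 fold change was 1.41 ± 0.098 with an adjusted p of 1.2e-07 by edgeR. DDX39B shares 29.7% of its exon bases on the same strand with the readthrough gene ATP6V1G2-DDX39B, which is listed at 0 in all libraries. The part of these shared exons in the level and the rise of DDX39B was not tested. DHX35 (log2 0.59) and DDX41 (0.39), both found in catalytically active spliceosomes, and DDX42 (0.41), which acts on the U2 small nuclear RNP, also rose. DDX41, at chr5:177511577-177516961, in which inherited variants predispose to myeloid leukemia, was measured at 130, 146 and 130 CPM with DMSO and 183, 176 and 171 CPM with FT671. The groups stayed apart, with an adjusted p of 7.76e-04 by edgeR, and DDX41 was the seventh highest member per length with DMSO at 108 ± 5.45 TPM.

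The splicing helicases that fell included the paralogs DDX5 and DDX17, which serve splicing and also act as transcriptional coregulators. DDX5, at chr17:64498254-64508199, gave 429, 437 and 498 CPM with DMSO and 321, 330 and 341 CPM with FT671. DDX17, at chr22:38483438-38507660, gave 712, 688 and 768 CPM with DMSO and 554, 531 and 568 CPM with FT671. All treated libraries were below all controls for both genes. The log2 fold change was −0.46 ± 0.074 for DDX5 and −0.39 ± 0.069 for DDX17, with adjusted p-values of 1.84e-04 and 3.64e-04 by edgeR. Per length DDX17 was the highest member with DMSO, at 241 ± 27.4 TPM, and the third highest with FT671, at 176 ± 5.66 TPM.

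DHX15, at chr4:24517441-24584554, takes apart the spliceosome after splicing and is served by many G-patch cofactors. It gave 98.9, 93.1 and 110 CPM with DMSO and 87.5, 84.3 and 81.1 CPM with FT671, with no overlap. The fall was small, at log2 −0.25 ± 0.084 with an adjusted p of 0.0214 by edgeR. The call was lost without FT671 replicate 2 (0.0726), without FT671 replicate 3 (0.104) and after correction for gene length (0.144). DDX23, which helps hand the 5′ splice site over during spliceosome activation, fell by 0.24 on the log2 scale (adjusted p = 0.0115), and this call was lost without FT671 replicate 2 (0.0679) and with the length correction (0.133). The remaining splicing members were not called. These were DHX16 (log2 −0.09, adjusted p = 0.343), DHX8 (−0.05, 0.562), DHX38 (−0.03, 0.774) and DDX46 (0.01, 0.954). DHX16, at chr6:30653119-30673006, gave 119, 116 and 116 CPM with DMSO and 114, 104 and 113 CPM with FT671, and DHX8, at chr17:43483865-43610338, 103, 106 and 111 CPM with DMSO and 99.3, 103 and 105 CPM with FT671. For DHX16 the treated libraries all lay below the controls, by as little as the gap from 114 to 116 CPM, and for DHX8 the groups overlapped.

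The 3 export helicases each behaved differently. DDX19A and DDX19B remodel mRNA-protein particles at the nuclear pore, and DDX39A, known as URH49, is the close relative of DDX39B in mRNA export. DDX39A, at chr19:14408798-14419383, fell from 196, 208 and 166 CPM with DMSO to 129, 111 and 109 CPM with FT671. No libraries overlapped, and the log2 fold change was −0.72 ± 0.095 with an adjusted p of 3.06e-05 by edgeR. DDX19A, at chr16:70346861-70373383, rose from 23.3, 26.3 and 27 CPM to 40.9, 41.1 and 41 CPM. The 3 treated libraries were nearly alike and well above the controls, with a log2 fold change of 0.70 ± 0.10 and an adjusted p of 7.78e-05. DDX19B, at chr16:70289663-70335305, gave 12.1, 10.4 and 10.9 CPM with DMSO and 13.3, 10.8 and 12.9 CPM with FT671, so that the groups overlapped (log2 0.14, adjusted p = 0.443). Since both genes share sequence with each other and exons with the readthrough gene ENSG00000260537 (23.9% of DDX19A and 16% of DDX19B exon bases, listed at 0 throughout), the split of reads between DDX19A and DDX19B is uncertain.

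The ratio of related members within a library does not depend on how libraries are scaled. DDX39A held more counts than DDX39B in every DMSO library, with log2 ratios of 2.34, 2.50 and 1.81, and nearly the same number in FT671 libraries, with 0.27, 0.0094 and 0.049. The ratio fell by 2.11 on the log2 scale, from 2.22 ± 0.36 to 0.11 ± 0.14 (SD, n = 3). The 2 sets of ratios did not overlap, and the two-sided exact permutation test gave p = 0.1, the smallest it can give with 3 libraries against 3 (adjusted over 5 pairs, 0.167). Per length, DDX39A stood at 164 ± 9.83 TPM and DDX39B at 19.6 ± 3.88 TPM with DMSO, against 96.5 ± 8.39 and 49.2 ± 1.34 TPM with FT671. Both this ratio and the DDX39B level may depend on how reads on exons shared with ATP6V1G2-DDX39B were counted, which was not tested.

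The log2 ratio of DDX21 to DDX50, neighbours on chromosome 10, rose from 3.30 ± 0.15 to 3.80 ± 0.075, and that of DDX19A to DDX19B from 1.19 ± 0.22 to 1.74 ± 0.17 (SD, n = 3). Neither pair overlapped between groups, and the exact permutation p was 0.1 for each (adjusted, 0.167). DDX50, at chr10:68901286-68946847, gave 61.4, 62 and 64.5 CPM with DMSO and 81.7, 80.5 and 80.2 CPM with FT671. Both neighbours were thus higher, DDX50 by less (log2 0.37 ± 0.078, adjusted p = 0.00141 by edgeR). The DDX5 to DDX17 ratio moved by −0.07 on the log2 scale (exact permutation p = 0.2, adjusted 0.25) and the DHX16 to DHX8 ratio by −0.03 (p = 0.7, adjusted 0.7). The DHX16 to DHX8 difference changed sign to 0.0050 without DMSO replicate 1 and to 0.013 without FT671 replicate 2. DDX3X with DDX3Y and DDX60 with DDX60L could not be compared, since DDX3Y and DDX60 were not tested.

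**Figure D3:**
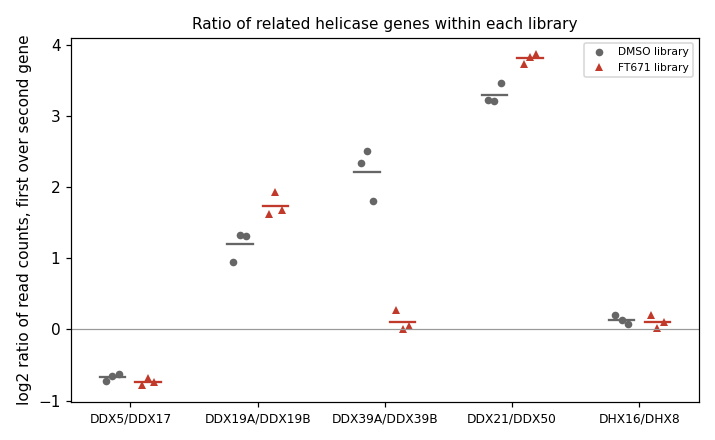
The log2 ratio of the read counts of 2 related helicase genes within each library (gray circles, DMSO; red triangles, FT671; bars, group means). The DDX39A/DDX39B ratio drops from a mean of 2.22 to 0.11, the DDX19A/DDX19B and DDX21/DDX50 ratios are higher with FT671, and the groups overlap for DDX5/DDX17 and DHX16/DHX8.

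Among the 5 helicases of translation and mRNA turnover, 1 (20%) was higher, 1 (20%) was lower and 3 were not called. The shares over all genes were 23.6% higher and 26.5% lower. DDX3X, at chrX:41333348-41364472, aids the translation of mRNAs with structured leaders. It gave 154, 145 and 185 CPM with DMSO and 64, 68 and 65.6 CPM with FT671, and had the largest fall among the members. Even the highest treated library lay far below the lowest control, the log2 fold change was −1.29 ± 0.095, and the adjusted p was 1.8e-07 by edgeR. Per length DDX3X went from 34.2 ± 6.5 to 13.3 ± 0.507 TPM, which is from rank 21 to rank 37 of the members. Its Y-linked paralog DDX3Y was at 0 in both groups.

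DHX29, which helps ribosomes to scan structured mRNA, was higher by log2 0.36 (adjusted p = 0.0217), with DMSO values of 36.8, 35.1 and 47.7 CPM and FT671 values of 48.2, 53.6 and 49.1 CPM. The highest control and the lowest treated library nearly touched. Its call was lost without DMSO replicate 1 (0.0984), DMSO replicate 2 (0.0937), FT671 replicate 2 (0.0913) and FT671 replicate 3 (0.0544), which leaves 1 called gene in the list. DDX6, at chr11:118747763-118791164, a translational repressor that also promotes decapping, gave 256, 229 and 300.0 CPM with DMSO and 241, 240 and 246 CPM with FT671. The treated libraries lay inside the range of the controls (log2 −0.10, adjusted p = 0.346). DHX34, tied to nonsense-mediated decay (log2 −0.28, adjusted p = 0.0721), and DHX36, which opens G-quadruplexes (−0.21, 0.147), were not called. DHX34 passed 0.05 with library totals alone (0.0498), without DMSO replicate 3 (0.0188) and without FT671 replicate 1 (0.0249), and DHX36 after correction for GC content (0.0315).

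Both mitochondrial members were lower, where 26.5% of all genes were, and both only narrowly. DHX30, at chr3:47802909-47850195, which assembles mitochondrial ribosomes, gave 253, 236 and 219 CPM with DMSO and 210, 201 and 198 CPM with FT671. The groups did not overlap, and the log2 fold change was −0.22 ± 0.074 with an adjusted p of 0.0235 by edgeR. DDX28, of the same pathway, gave 10.1, 9.98 and 12 CPM with DMSO and 9.99, 7.4 and 5.81 CPM with FT671 (log2 −0.52, adjusted p = 0.037), and here 1 treated library lay within the control range. After correction for gene length DHX30 was not called (adjusted p = 0.257), and by DESeq2's Wald test DDX28 was not (0.124). Without DMSO replicate 1, DMSO replicate 2, FT671 replicate 2 or FT671 replicate 3 neither gene was called, with adjusted p-values of 0.127, 0.0538, 0.0927 and 0.103 for DHX30 and 0.0627, 0.0558, 0.0843 and 0.278 for DDX28. The DDX28 change was −0.29 on the log2 scale without FT671 replicate 3.

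The antiviral members were barely expressed. DDX60L, at chr4:168356735-168537786, gave 1.32, 1.83 and 2.22 CPM with DMSO and 1.11, 0.902 and 0.447 CPM with FT671, from 5 to 20 counts in a library. Treated libraries were all below the controls, and the log2 fold change was −1.22 ± 0.42 with an adjusted p of 0.0265 by edgeR. Without FT671 replicate 3 the change was −0.74 with an adjusted p of 0.232, and DESeq2's Wald test gave 0.154. Without DMSO replicate 2 it had too few counts to be tested. DHX58, known as LGP2, a regulator of RIG-I-like sensing, was not called (log2 0.14, adjusted p = 0.769) at 1.3 ± 0.331 and 1.61 ± 0.64 CPM (SD, n = 3). DDX53, an X-linked testis gene and the only tested member of the germ line list of 5, stood at 1.26 ± 0.353 and 1.54 ± 0.0843 CPM and was not called (adjusted p = 0.357).

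Of the 4 members with roles in tRNA, small nuclear RNP, transcription or DNA metabolism, 2 (50%) rose, 1 (25%) fell and 1 was not called. The shares over all genes were 23.6% higher and 26.5% lower. DHX9, at chr1:182839347-182887982, known as RNA helicase A, acts in transcription and resolves double-stranded RNA and R-loops. It gave 204, 192 and 228 CPM with DMSO and 390, 380 and 398 CPM with FT671, with all treated libraries far above the controls. The log2 fold change was 0.91 ± 0.076 and the adjusted p 5.11e-07 by edgeR, and per length it moved from the sixth highest member to the second, at 118 ± 17.1 and 211 ± 4.68 TPM. DHX9-AS1, the divergent non-coding gene that shares 1.87% of the DHX9 exon bases, was also higher (log2 0.99, adjusted p = 0.00144).

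DDX1, a subunit of the tRNA ligase complex, rose from 149, 123 and 171 CPM to 218, 216 and 223 CPM, with no overlap (log2 0.58 ± 0.099, adjusted p = 2.86e-04 by edgeR). DDX20, known as gemin3 and part of the SMN complex that loads Sm proteins onto small nuclear RNAs, is at chr1:111754832-111775602. It gave 24.1, 24.3 and 27.2 CPM with DMSO and 18, 14.4 and 19.5 CPM with FT671. Every treated library was below every control, and the log2 fold change was −0.51 ± 0.13 with an adjusted p of 0.00454. DDX11, a DNA helicase of sister chromatid cohesion, was not called (log2 0.13, adjusted p = 0.508), and reads may be split between it and its near-copies DDX12P and DDX12B.

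Of the 4 members with less defined roles, 1 (25%) was called lower, against 26.5% of all genes. This was DHX57, with a log2 fold change of −0.28 and an adjusted p of 0.0486 by edgeR. It gave 30.5, 26.7 and 33.1 CPM with DMSO and 23.3, 24.7 and 25.2 CPM with FT671, without overlap. This call was lost without any 1 of 5 libraries, with adjusted p-values of 0.126 without DMSO replicate 1, 0.069 without DMSO replicate 3, and 0.124, 0.105 and 0.098 without FT671 replicates 1, 2 and 3. It was also lost after correction for gene length (log2 −0.17, adjusted p = 0.19). DHX40 (log2 0.18, and called after correction for gene length, adjusted p = 0.0374), DDX59 (−0.20) and DHX32 (−0.26) were not called. DHX32 shares 10.4% of its exon bases with BCCIP on the opposite strand, which was higher (log2 0.60), and was the 1 member in which no motif II was found.

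**Figure D4:**
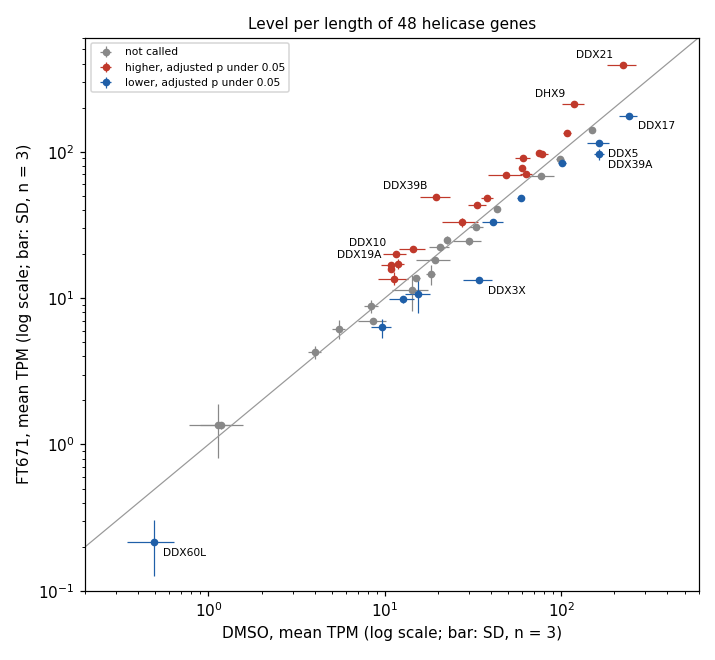
Mean level of each tested helicase gene per length, in TPM on log axes, with DMSO on the horizontal and FT671 on the vertical axis (bars, SD of 3 libraries; red, higher; blue, lower; gray, not called). Points off the diagonal include DDX39B and DDX21 above it and DDX3X and DDX39A below it, and the members span from under 1 TPM for DDX60L to 389 TPM for DDX21 with FT671.

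Summed over all members, the level was 2430 ± 209 TPM with DMSO and 2640 ± 18.6 TPM with FT671 (SD, n = 3), and DMSO replicate 3, at 2670 TPM, was above every treated library. The members as a whole were thus close in total level while single members moved apart. In these bulk libraries, fewer cells that use a gene and less RNA of it per cell cannot be told apart.

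A sequence feature that the choice by symbol does not fix is the motif II itself. It read DEAD in 30 members, DEAH in 9, DEVH in 6 and DEIH, DECD and DEVD in 2 each, with single cases of DESD and DECH. Over all genes 23.6% were higher and 26.5% lower. Among tested members with DEAD, 12 of 25 (48%) were higher and 6 (24%) lower (median log2 fold change 0.22). The 5 members with another motif ending in D are DDX21, DDX39A, DDX39B, DDX50 and DDX52. All were called, 4 (80%) higher and 1 (20%) lower (median 0.37). Of the 9 members with DEAH, 1 (11.1%) was higher and 1 (11.1%) lower (median −0.03). Of 8 tested with another motif ending in H, 2 (25%) were higher and 3 (37.5%) lower (median −0.22). The called DEAH members numbered 1 without FT671 replicate 2 or replicate 3. The called members with another motif ending in H numbered 2 without DMSO replicate 1, DMSO replicate 2 or FT671 replicate 2, and 1 without FT671 replicate 3. Among the tested members whose motif ends in D, the 13 of ribosome biogenesis held 11 that were higher and 0 lower, and the 17 of other lists 5 higher and 7 lower. The 2 DEAH members of ribosome biogenesis, DHX33 and DHX37, were not called. Most classes are small, and a link between motif class and change was not tested.

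Promoters of ribosome assembly genes are known to be rich in the E-box CACGTG, which basic helix-loop-helix factors bind. The letters CACGTG, which read the same on both strands, were searched in the 250 bases before the start of each gene in RefSeq (GRCh38.p14). They were found in 9 of 49 members with a promoter there (18.4%) and in 7.73% of 27305 genes. The 27305 genes were taken without regard to gene type, whereas all members are protein-coding. The shares therefore come from unlike sets of genes. Windows are shown for 2 members that rose, 1 that fell and 1 that was not called, with the E-box in capitals.
DDX21, chr10:68956604-68956633, plus strand: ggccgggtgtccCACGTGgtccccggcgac
DDX31, chr9:132669988-132670017, minus strand: cctcgcgcgtccCACGTGgggtcccgggcc
DDX5, chr17:64506651-64506680, minus strand: gggtggtacagcCACGTGacaacgccaggc
DDX54, chr12:113185522-113185551, minus strand: ctcagcggaggtCACGTGgtcaccgcacct
Counted from the RefSeq starts, the match lay 31 bases before DDX21, 22 before DDX31, 30 before DDX5 and 61 before DDX54. The GENCODE spans of DDX21, DDX31 and DDX5 start farther upstream, so that their windows lie inside them. Of the members with the letters that are not shown, DHX35 was higher, DHX32, DHX34 and DHX40 were not called and DDX25 was not tested. Only DDX21, DDX31 and DDX54 among all of them are on the ribosome biogenesis list. Genes with the letters were thus found among those that rose, fell and were not called. No binding was measured here, and a link between the letters and the change was not tested.

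RNA helicases under other symbols were taken for comparison. Of 24 listed, 21 were tested, 6 (28.6%) were higher and 5 (23.8%) were lower, near the 23.6% and 26.5% over all genes, and their median log2 fold change was 0.11. EIF4A2, an RNA helicase of translation initiation, rose from 164 ± 19.6 to 482 ± 38.5 CPM (SD, n = 3; log2 1.57, adjusted p = 3.21e-08 by edgeR), and SNRNP200, the spliceosomal helicase Brr2, rose by 0.34. EIF4A1 rose from 1.27 ± 0.0667 to 4.27 ± 0.257 CPM, a low level for a general initiation factor. On the same strand it shares 28.2% of its exon bases with the readthrough gene SENP3-EIF4A1 and 42.1% with ENSG00000264772, each listed at 0 or 1 count, and the part of these shared exons in its level and its rise was not tested. HELZ2 (log2 −1.67) and UPF1, the helicase of nonsense-mediated decay (−0.55), were lower.

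Of 33 genes for proteins that bind or switch on DDX and DHX helicases or eIF4A, 9 (27.3%) were higher and 10 (30.3%) lower, near the 23.6% and 26.5% over all genes. Their median log2 fold change was −0.03. CNOT1, the scaffold through which the CCR4-NOT deadenylase reaches DDX6, fell from 475 ± 50.6 to 198 ± 7.58 CPM (SD, n = 3; log2 −1.26, adjusted p = 8.04e-08 by edgeR), and EIF4ENIF1, another DDX6 partner, fell from 30.5 ± 0.813 to 15.8 ± 1.25 CPM. Of the other DDX6 partners, EDC3 was lower (log2 −0.29, adjusted p = 0.0186), and PATL1 (−0.10, 0.278) and LSM14A (−0.03, 0.773) were not called. The genes of G-patch proteins, which activate DHX15 and its relatives, went both ways. TFIP11 (log2 −0.76), RBM5 (−0.47), GPKOW (−0.37) and SUGP1 (−0.36) were lower. GPATCH4 (0.83) and CMTR1 (0.45) were higher, and GPATCH1, GPATCH2 and ZGPAT were not called. NKRF, which brings DHX15 to the nucleolus, was higher (0.40). Of the eIF4A partners with an EIF4 symbol, EIF4G1 (0.50) and EIF4G3 (0.35) were higher and EIF4B (−0.51) and EIF4G2 (−0.27) lower. EIF4H was not called (−0.06).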

How the data were processed

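The authors depleted total RNA of ribosomal RNA, sequenced it paired-end, aligned the reads to hg38 with STAR and deposited 1 raw count per gene and library. The version of STAR, its annotation and strand setting are not given in the sources used here. The 6 ChIP samples were not analysed here. Of the cell type markers, 1 is not reported here. Of 60609 genes, 60340 were matched to GENCODE release 44 by identifier.

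Counts were filtered with filterByExpr (13895 genes), scaled by TMM and compared by edgeR's quasi-likelihood test (edgeR 4.0.16, R 4.3.3) over all 6 libraries, with Benjamini-Hochberg adjustment over all genes tested, at 0.05 and at 1e-05, the threshold of the study's methods. CPM used TMM-scaled totals. TPM used the merged length of all exons that GENCODE lists for a gene, over all its transcripts. Levels and ranks compared between genes therefore depend on this annotation. The SE of a log2 fold change was worked out as its absolute value divided by the square root of edgeR's F statistic. Ratios of related members were tested by two-sided exact permutation. Motif II was read from GENCODE canonical coding sequences in place of RefSeq proteins, and the self-test used simulated counts.

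Named in full were the 6 largest rises and falls among members called at 0.05 without overlap, the 3 highest by TPM, tested pairs of relatives, and DDX3X, DDX5, DDX6, DDX21, DHX9, DHX15, DHX30 and DDX41. The members, lists and pairs were chosen with earlier results of these data known. Alternatives were DESeq2 1.42.0 size factors and Wald test, library totals, other filters, protein-coding genes alone, the replicate block, length and GC corrections (loess, span 0.3), and each library left out.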

Additional observations from a re-analysis of the deposited data

How the results depend on the processing

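Of 806 combinations of a tested member and an alternative, 726 kept direction and call, 44 lost the call, 10 gained it and 26 changed sign, the last in 7 members that had not been called. DDX46 stood at −0.026 with library totals alone, −0.027 with no filter, −0.0034 with the replicate block, −0.015 with GC correction and −0.022 with GC correction and block. After length correction, and with the block added, DDX54 stood at 0.031 and 0.036, DDX6 at 0.039 and 0.039, DHX33 at 0.011 and 0.018, DHX38 at 0.064 and 0.074 and DHX8 at 0.080 and 0.080. GC correction without and with the block gave 0.059 and 0.057 for DDX54 and 0.048 and 0.044 for DHX38. With 1 library left out, the change ran from −0.057 to 0.12 for DDX46, −0.082 to 0.0069 for DDX54, −0.12 to 0.015 for DHX33 and −0.18 to 0.20 for DHX58. The cause was not tested.

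Members lower at 0.05 numbered 7 with length correction, 6 with length correction and block, and 6 to 11 with 1 library left out. Members higher at 1e-05 numbered 8 with no filter, 9 with length correction and block, 10 with GC correction and 1 to 10 with 1 library left out. Members lower at 1e-05 numbered 4 by DESeq2's Wald test, 4 with no filter, 2 with the block, 2 with length correction (2 with the block), 3 with GC correction (3 with the block) and 0 to 4 with 1 library left out. The median of the members was 0.21 and 0.27 with length correction without and with the block, and 0.20 in either form of GC correction. Splicing genes that were lower numbered 2 with length correction, 2 with the block added, and 2 to 4 with 1 library left out. Called mitochondrial genes numbered 1 by the Wald test and in all forms of length and GC correction, and 0 to 2 with 1 library left out. The antiviral call was 0 by the Wald test, with at least 10 counts in every library and with length correction and block, and 0 to 1 with 1 library left out. The calls among genes of less defined role numbered 0 with DESeq2 size factors, the Wald test and no filter, and 0 to 1 with 1 library left out. With length correction, without and with the block, DHX57 lost its call (adjusted p = 0.19 and 0.186) and DHX40 gained one, so that this count stayed at 1. With 1 library left out, called translation genes numbered 1 to 3, called DEAH members 1 to 2, called members with another motif ending in H 1 to 5, and the DHX16 to DHX8 ratio moved by −0.072 to 0.013. The last motif class held 3 calls by the Wald test, 3 with length correction and 2 with the block added. Helicases with other symbols that were higher numbered 10 with length correction and block.

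The labels tie no replicate number to an experiment, and the study speaks of independent experiments without saying which libraries belong together. The correlation of their deviations over 13895 genes was 0.115, −0.0605 and 0.14 for replicates 1, 2 and 3. With the replicate block, 19 members were higher and 11 lower at 0.05 and 5 higher at 1e-05, and the sign-flip test within pairs, which cannot go below 0.25, gave 0.25 for the DDX39A to DDX39B ratio. The depth limits DDX60L, DHX58 and DDX53, at under 3 CPM, most.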

Other observations

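Among the 44 non-coding relatives with a DDX or DHX symbol, 27 had at least 1 count and 3 could be tested. DDX59-AS1, the antisense gene at the start of DDX59, fell from 39, 45 and 12 counts with DMSO to 1, 6 and 7 with FT671 (log2 −2.21, adjusted p = 5.73e-04 by edgeR), while DDX59 itself was not called (log2 −0.20). DDX19A-DT gave a log2 fold change of 0.46 with an adjusted p of 0.054. DDX11L5, a pseudogene near the end of chromosome 9, held 152 counts in DMSO replicate 3 and 0 in each of the other 5 libraries. The value was noticed in the data, and its origin was not tested.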
